A study of Mus musculus with 4 samples.

Results

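Whole cerebella of 14-day-old mice (P14) labelled Eftud2 cKO were compared with those of wild-type (WT) mice of the same age, over complete droplet single-cell RNA libraries and within the cell classes they held. Cells were taken as barcodes with at least 500 detected genes and at most 20% of their UMIs (unique molecular identifiers, counts of single captured RNA molecules) from mitochondrial genes. This left 15395 of 15837 barcodes in P14 WT and 6308 of 7281 in P14 cKO, so 21703 of the 42576 cells kept in all 4 libraries of the series, which also has both genotypes at postnatal day 10 (P10). Eftud2 encodes a GTPase of the U5 particle of the spliceosome, and the series title places the deficiency in Purkinje cells. The labels give no Cre line, deleted exon, strain, sex, litter or number of pooled animals. Each genotype had 1 library, so no difference below has a replicate check, and the intervals given are 95% intervals for counting error only.

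In the second postnatal week the mouse cerebellum is still being built. Granule cell progenitors divide at the surface under Sonic hedgehog supplied by Purkinje cells, and their daughters migrate inward and switch on the receptors and channels of mature granule neurons. Oligodendrocyte precursors turn into myelinating cells over the same days, and the choroid plexus of the fourth ventricle, a secretory epithelium, adjoins the tissue at dissection.

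The libraries differed in depth. Median depth was 7838 UMIs and 3161 genes per cell in P14 WT and 12347 UMIs and 4118 genes in P14 cKO, over 145193494 and 90390630 UMIs in total. The libraries shared 33 cell barcodes, which is 0.214% of the WT and 0.523% of the cKO cells. RNA of Eftud2, which lies on chromosome 11 (102838473 to 102880985 of GRCm38, minus strand, ENSMUSG00000020929), was at 47.3 CPM in WT and 45.0 CPM in cKO, where CPM is a gene's UMIs per 1000000 UMIs of the library or class, and it passed 2-fold in 0 of 10 classes. With each cell thinned to 2000 UMIs, 8.0% of WT and 8.52% of cKO cells held an Eftud2 UMI. No cluster was named Purkinje cell, and Pcp2, a marker of that type, had 90 and 124 UMIs in all. The labelled deletion was therefore not checked by its own transcript. Xist, expressed from the inactive X chromosome of females, was at 1010 and 896 CPM.

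The libraries differed in which cells they held. Oligodendrocytes, the myelinating cells, made up 0.909% of the WT cells (0.766 to 1.07) and 6.45% of those in cKO (5.86 to 7.09), a ratio of 7.1. Their median depth was 3864 UMIs in WT and 1869 in cKO, the lowest of any named class in cKO. GABAergic interneurons were 2.76% (2.51 to 3.03) and 8.91% (8.22 to 9.64), a ratio of 3.23, and microglia 4.44% and 7.28%. Border macrophages numbered 57 in WT and 101 in cKO, 0.370% (0.281 to 0.479) and 1.60% (1.31 to 1.94), a ratio of 4.32. Choroid plexus cells numbered 427 in WT and 14 in cKO, shares of 2.77% (2.52 to 3.05) and 0.222% (0.121 to 0.372), and ependymal cells numbered 44 and 2. Granule cell progenitors were 17.2% and 10.4%, astroglia 5.50% and 3.38%, and granule neurons 51.0% and 43.2%. Oligodendrocyte precursors (1.59% and 1.66%) and fibroblasts (1.91% and 2.01%) had overlapping intervals. Shares within a dissociated suspension depend on how much of each tissue was taken and survived, which was not tested.

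**Figure D1:**
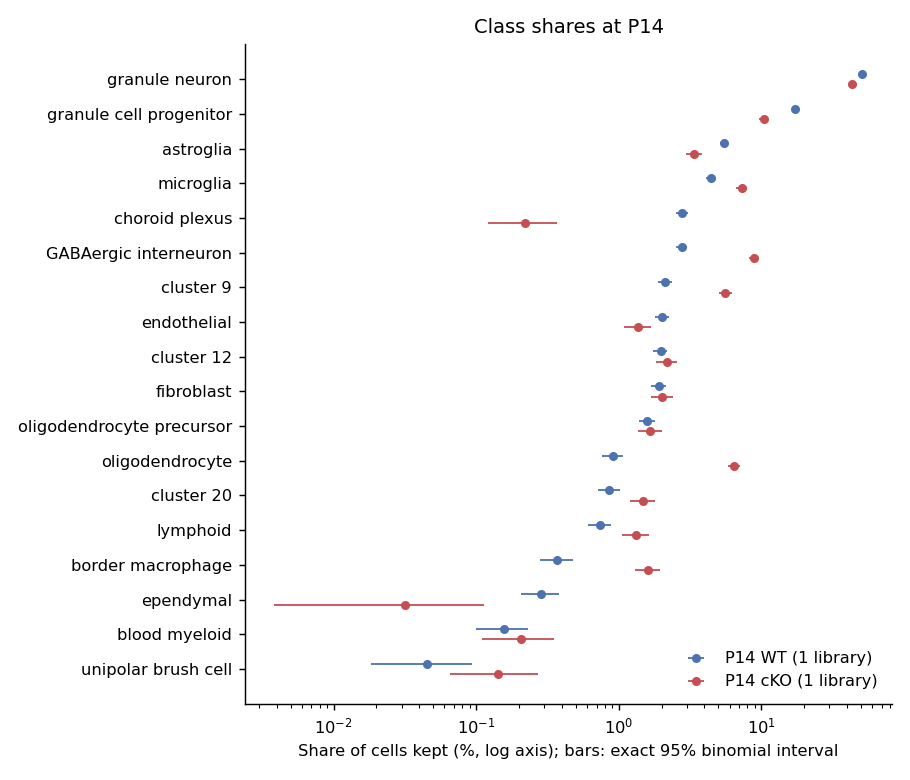
Share of each cell class among the cells kept (percent, log axis) in P14 WT (blue) and P14 cKO (red), 1 library each, with exact 95% binomial intervals. Oligodendrocytes sit at 0.909% and 6.45%, choroid plexus cells at 2.77% and 0.222%, and the intervals of oligodendrocyte precursors and fibroblasts overlap.

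Of 15843 genes with at least 200 UMIs over both libraries, 758 (4.78%) were at least 2-fold higher in cKO and 342 (2.16%) at least 2-fold lower. Each library was then recombined with the same number of cells of every class, called equal make-up below, so that class shares no longer differed. UMIs per cell of a class still could, so a class could weigh differently in the 2 sums. Median UMIs per cell were 6770 in WT and 11655 in cKO granule neurons, but 3864 and 1869 in oligodendrocytes. At equal make-up 305 genes (1.93%) were at least 2-fold higher and 105 (0.663%) at least 2-fold lower. Of the 758 higher genes, 252 (33.2%) passed 2-fold at equal make-up, and of the 342 lower genes, 77 (22.5%) did. Another 77 and 17 genes changed sign.

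The class in which a gene had its highest level separated the calls. Among the 823 genes with their highest level in oligodendrocytes, 162 (19.7%) were at least 2-fold higher in the whole cKO library, and 4 of these were so at equal make-up. Among 862 genes highest in border macrophages, 120 (13.9%) were at least 2-fold higher, and 29 of these were so at equal make-up. Among 665 genes highest in choroid plexus 58 (8.72%) were at least 2-fold lower and 0 at least 2-fold higher. Among 1800 genes highest in ependymal cells, 163 (9.06%) were at least 2-fold lower. Among 612 genes highest in granule neurons, 13 (2.12%, against 4.78% of all genes) were at least 2-fold higher, and 13 of these also passed 2-fold at equal make-up. So did 8 of 8 higher genes of granule cell progenitors, 7 of 7 of astroglia and 6 of 6 of cluster 9.

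**Figure D2:**
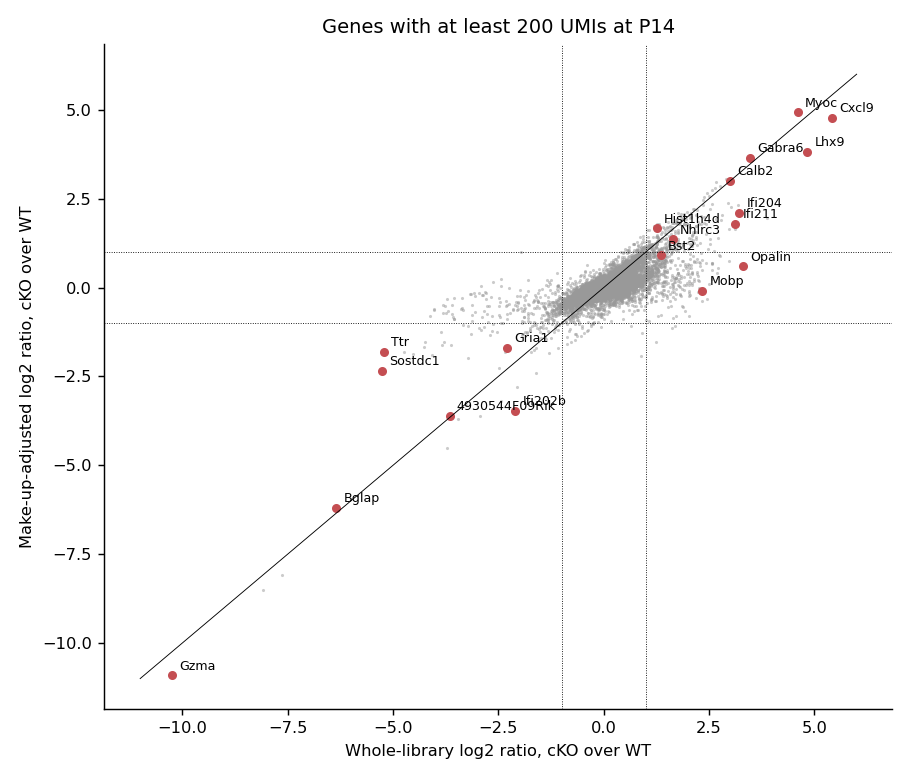
Log2 ratio of cKO over WT for each gene with at least 200 UMIs, over whole libraries (horizontal) and at equal class make-up (vertical), with dotted lines at 2-fold and a diagonal of equality. Opalin and Mobp lie far right and near 0 on the vertical axis, while Lhx9, Calb2, Gabra6, Gzma and Bglap lie near the diagonal.

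Myelin genes showed the first pattern, with higher levels over the whole cKO library and little difference at equal make-up. Of 14 measured genes of the myelin list, 13 were at least 2-fold higher over the whole library (median log2 ratio 2.0, against 0.00 for all genes), and 0 were at equal make-up (median -0.11). Within oligodendrocytes 0 of 14 passed 2-fold, and the median was 0.17. Mobp, a protein of compact myelin in the central nervous system, was at 125 CPM in WT and 629 in cKO (log2 ratio 2.33, 2.31 to 2.36). Within oligodendrocytes Mobp was at 5594 and 6420 CPM, close to each other. These are levels per UMI of the class and not per cell, and median depth per oligodendrocyte was 3864 and 1869 UMIs. Opalin, a membrane protein of mature oligodendrocytes, went from 5.89 to 57.9 CPM between WT and cKO (3.30, 3.19 to 3.40), and at equal make-up the ratio was 0.59.

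Mobp was also at least 2-fold higher in 6 of the 8 classes in which it was measured, among them cells that do not make myelin. In granule neurons its level was 3.24 CPM in WT and 26.8 in cKO, and in microglia it was 4.76 and 40.8 CPM. Mbp, which binds the membrane layers of myelin together, was at least 2-fold higher in 8 of 10 classes. The 11 oligodendrocyte markers summed to 138 (WT) and 455 CPM (cKO) over granule neurons, with 11 of 11 higher in cKO, and over microglia to 129 and 629 CPM. In the whole libraries they summed to 2615 and 9374 CPM. The microglial genes C1qa and C1qb, which encode complement chains, were likewise at least 2-fold higher in 7 classes, while C1qb within microglia was at 5173 and 5679 CPM. RNA from other cells of the suspension was not removed from these values, and its part in them was not tested.

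Ttr, the thyroid hormone carrier secreted by the choroid plexus, was the mirror image, lower in cKO in 10 of 10 classes. Over whole libraries it had 859685 UMIs in WT and 14309 in cKO, 5921 and 158 CPM (-5.23, -5.25 to -5.20). Its level in granule neurons was 197 CPM in WT and 6.23 in cKO, in fibroblasts 1524 and 7.55 CPM, and in microglia 739 and 7.29 CPM. Thinned to 2000 UMIs, 31.0% of WT cells held a Ttr UMI against 1.52% of cKO cells. Summed with the other 9 choroid plexus markers the level was 204 (WT) and 12.2 CPM (cKO) in granule neurons, of which Ttr made up 197 and 6.23 CPM, and 2 of the 10 markers were higher in cKO there. In microglia the sum was 754 and 9.61 CPM, 0 of 10 were higher in cKO, and 3 were at 0. The part of choroid plexus RNA in these values was not tested. Of the 12 genes of choroid plexus secretion, 9 were at least 2-fold lower in the whole cKO library (median -2.25) and 4 at equal make-up (median -0.77), among them Sostdc1, a secreted antagonist of Wnt and BMP signalling, at 22.6 and 0.59 CPM (-5.25).

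**Figure D3:**
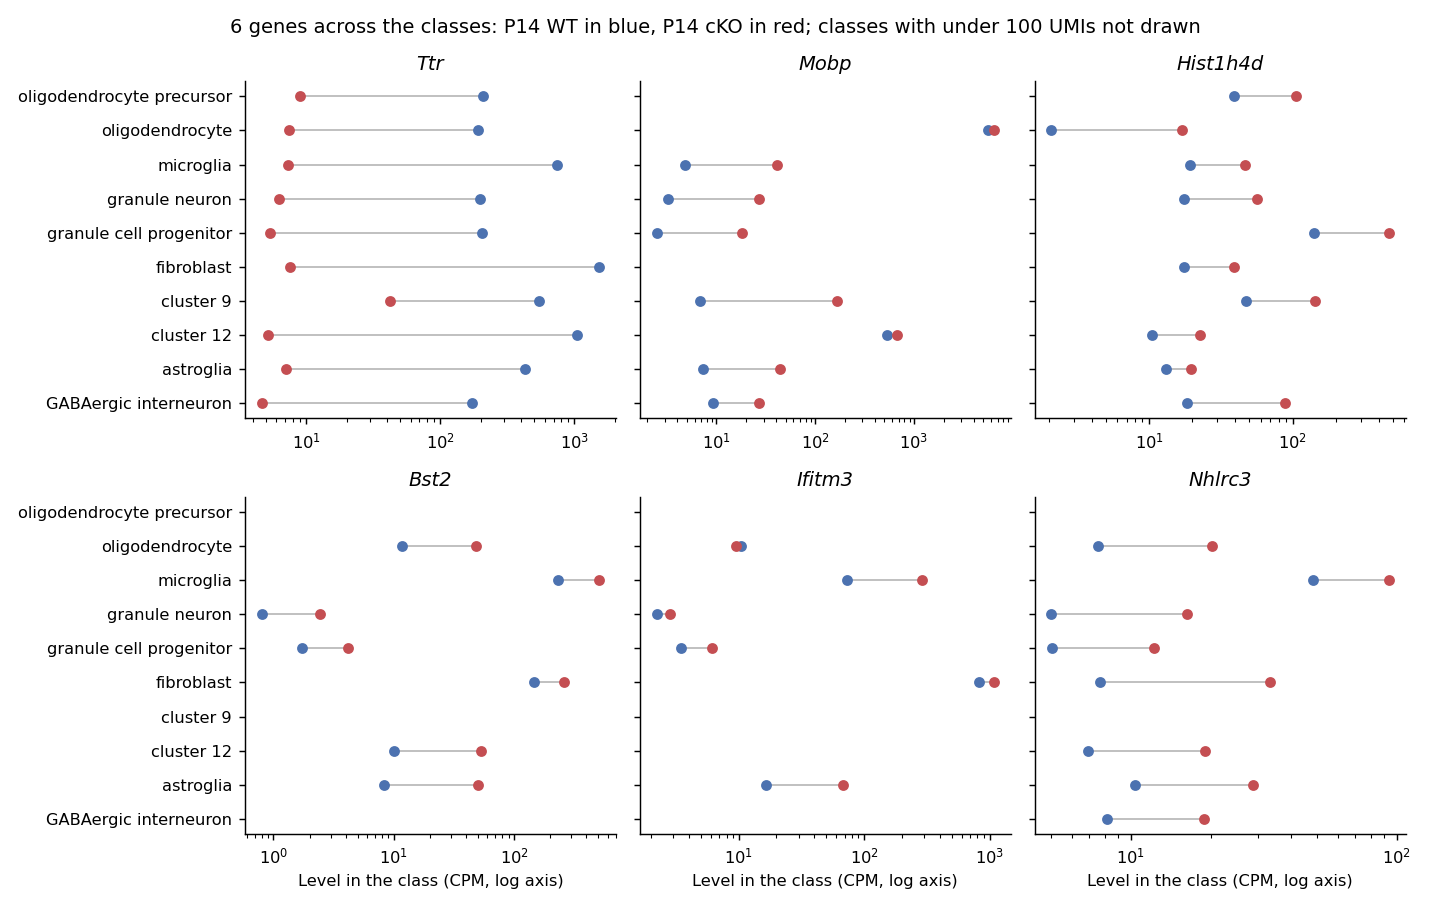
Level of 6 genes (CPM, log axis) in each class with at least 100 UMIs of the gene, P14 WT in blue and P14 cKO in red, 1 library each. Ttr is lower in cKO in every class drawn, Mobp is nearly the same in oligodendrocytes but higher in cKO in granule neurons and microglia, and Hist1h4d and Nhlrc3 are higher in cKO in every class drawn.

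Interferon response genes were higher in cKO across the library and within several classes. These genes are switched on by interferons, and their products block viral RNA, mark cells for immune recognition and draw in leukocytes. Of 26 measured members 22 were at least 2-fold higher over the whole library and 15 at equal make-up (medians 1.47 and 1.07, all genes 0.00 in both). The shares over all genes were 4.78% and 1.93%. Within classes, 21 of 26 measured members passed 2-fold in microglia, 10 of 12 in the unnamed cluster 12, 5 of 7 in astroglia, 5 of 8 in oligodendrocytes and 9 of 21 in fibroblasts. Of all genes measured, 1.97%, 0.782%, 0.951%, 1.39% and 1.08% did in these classes, in that order. Elsewhere 2 of 10 members passed in granule neurons (4.81% of all genes) and 2 of 8 in granule cell progenitors (0.81%). In interneurons 1 of 2 did (1.4%) and in oligodendrocyte precursors 0 of 3 (0.279%), and none was measured in cluster 9. Promoter windows of 6 of the genes are shown because they are higher together and carry the same letters. Each is 60 bases, 5′ to 3′ on the gene's own strand, upstream of the transcription start in RefSeq (GRCm38.p6), with the match on either strand to the searched motif in capitals (GAAA, any 2 bases, then GAAA, which is the core of the interferon-stimulated response element):
Isg15 (chr4:156200850-156200909, minus strand): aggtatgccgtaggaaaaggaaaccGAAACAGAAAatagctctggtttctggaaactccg
Ifit3 (chr19:34583382-34583441, plus strand): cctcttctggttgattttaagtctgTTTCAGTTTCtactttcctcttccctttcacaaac
Rsad2 (chr12:26456538-26456597, minus strand): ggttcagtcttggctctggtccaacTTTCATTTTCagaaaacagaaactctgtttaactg
Bst2 (chr8:71537562-71537621, minus strand): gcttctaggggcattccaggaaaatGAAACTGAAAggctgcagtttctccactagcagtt
Cxcl10 (chr5:92349068-92349127, minus strand): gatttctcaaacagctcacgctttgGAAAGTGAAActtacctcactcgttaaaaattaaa
Ifi211 (chr1:173913049-173913108, minus strand): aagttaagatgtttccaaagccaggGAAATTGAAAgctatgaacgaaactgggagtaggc
Over promoters from 250 bases before to 50 after the start, 13 of 19 matched list members (68.4%) held the motif, against 1079 of all 27025 genes (3.99%). Ifi211 is not a member of the list. Only 1 match per window is in capitals. The promoters of Isg15, Bst2 and Ifit3 hold 3, 2 and 2 matches, and the windows of Isg15 and Bst2 hold further matches wholly or partly in lower case. A match is a description of letters and not a site shown to be bound.

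The genes whose windows are shown did not all differ in the same cells. Rsad2, an antiviral enzyme that makes a chain-ending nucleotide, was at 2.92 and 17.3 CPM over the WT and cKO libraries (2.57, 2.41 to 2.73). Ifit3, an adaptor of antiviral signalling, was at 4.94 and 25.7 CPM (2.38, 2.26 to 2.50), and Isg15, which is conjugated to proteins much as ubiquitin is, had 9.66 and 19.8 CPM (1.04, 0.94 to 1.14). Cxcl10, a chemokine for T cells, was at 265 and 332 CPM in microglia (0.33), under 2-fold, and at 8.26 and 77.2 CPM in fibroblasts (3.20).

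Bst2, a membrane tether of enveloped viruses, was at least 2-fold higher in 6 of the 7 classes in which it was measured. It reached 230 (WT) and 508 CPM (cKO) in microglia, in astroglia 8.37 and 49.9 CPM, and in cluster 12, described below, 10.0 and 53 CPM. In fibroblasts, at 146 and 262 CPM, it was higher by less than 2-fold. Ifitm3, which blocks the entry of viruses into cells, passed 2-fold in 2 of 6 classes. Its level in microglia was 72.7 CPM in WT and 290 in cKO, and in oligodendrocytes 10.5 and 9.59 CPM, with a counting interval that spans equality.

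Neighbouring genes of the Ifi200 family, interferon-inducible DNA-binding proteins on chromosome 1 (173350879 to 173982744, GRCm38), did not share one direction. This family was singled out after its values were seen. Ifi204, Ifi213, Ifi211, Ifi206, Ifi207 and Ifi209 were all at least 2-fold higher in cKO, with log2 ratios of 2.19 to 3.21, for example Ifi204 at 2.25 and 20.9 CPM. At equal make-up Ifi207 was at 0.70, under 2-fold, and the other 5 at 1.37 to 2.33. At P10, in libraries that other program versions wrote, 4 of these 6 were lower in cKO than in WT, for example Ifi204 at 9.89 and 6.09 CPM and Ifi207 at 20.8 and 9.20 CPM. The more abundant Mndal (89.2 and 149 CPM), Ifi203 (41.2 and 73.8 CPM) and Aim2 (33.3 and 51.7 CPM) were higher by less than 2-fold. Ifi202b, at the end of the row, was lower, with 250 UMIs in WT and 36 in cKO (-2.10, -2.66 to -1.60), and its ratio was -3.46 at equal make-up. At P10 Ifi202b was in the other order, at 0.026 CPM in WT and 0.271 in cKO, both low levels. In microglia Ifi202b had 121 UMIs in WT and 0 in cKO, a level at least 45.9-fold lower against a floor of 3 counts, and its UMIs were in 68 of 684 and 0 of 459 cells. Near-identical copies in this family can share reads, so the split between its members is uncertain.

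**Figure D4:**
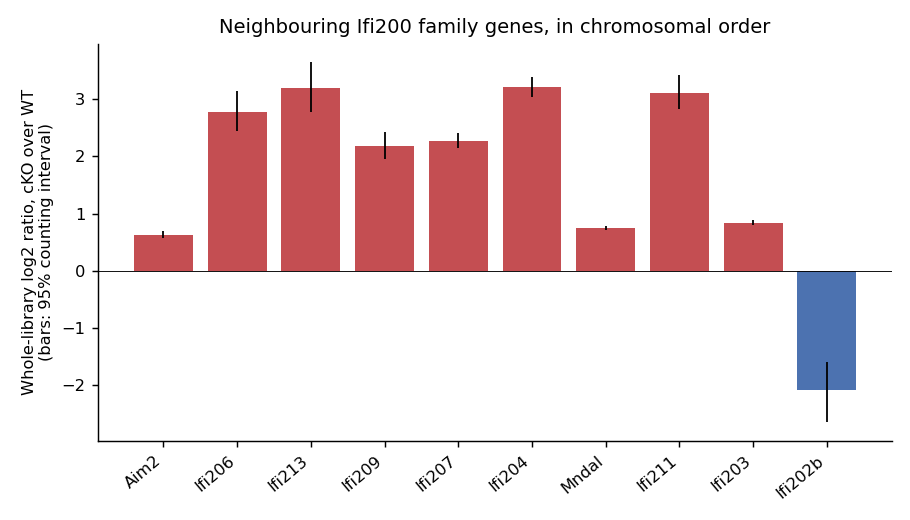
Whole-library log2 ratio of cKO over WT for 10 neighbouring Ifi200 family genes in chromosomal order, with 95% counting intervals. Aim2, Mndal and Ifi203 lie between 0.63 and 0.84, 6 others between 2.19 and 3.21, and Ifi202b at -2.10.

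In granule neurons, of 12985 genes with at least 100 UMIs, 624 (4.81%) were at least 2-fold higher in cKO and 59 (0.454%) lower. Different clusters held the class in the libraries: clusters 5 and 25 had 1048 and 113 cKO cells but 264 and 25 WT cells, while the class had 2723 cKO and 7847 WT cells without called doublets. With the clusters weighted alike in both libraries, 137 genes were at least 2-fold higher and 50 lower. The mature granule neuron list went with this, with 11 of 17 members at least 2-fold higher within the class (median 1.93, all genes 0.01). Over the whole library its median was 1.28, at equal class make-up 0.81 and at equal cluster make-up 0.22.

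Among the genes of this group, Calb2, the calcium buffer calretinin, was at 9.50 and 78.9 CPM in granule neurons of WT and cKO (3.05, 2.92 to 3.19). Thinned to equal depth, 1.38% of WT and 10.9% of cKO granule neurons held a Calb2 UMI, beside 0.0382% and 0.153% of granule cell progenitors, whose median depth was 12522 and 19379 UMIs. Grin2a, the NMDA receptor subunit of maturing synapses, was at 5.32 and 58.5 CPM, and Gabra6, a GABA receptor subunit switched on late in these neurons, at 1.77 and 21.9 CPM. Fgf14, which binds sodium channels at the axon initial segment, had the largest gain in share of cells over the whole library, from 12.4% to 31.3%. Within granule neurons Fgf14 had 142 CPM in WT and 989 in cKO, whereas in interneurons it had 841 and 748 CPM, less than 2-fold apart. Plppr1 (55.5% and 39.3%) and Ccnd2 (51.3% and 33.2%), the cyclin of dividing progenitors, had the largest losses after Ttr. In all, 188 genes (1.19%) gained and 180 (1.14%) lost at least 5 points, with 1097 WT and 731 cKO cells too shallow to be thinned.

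**Figure D5:**
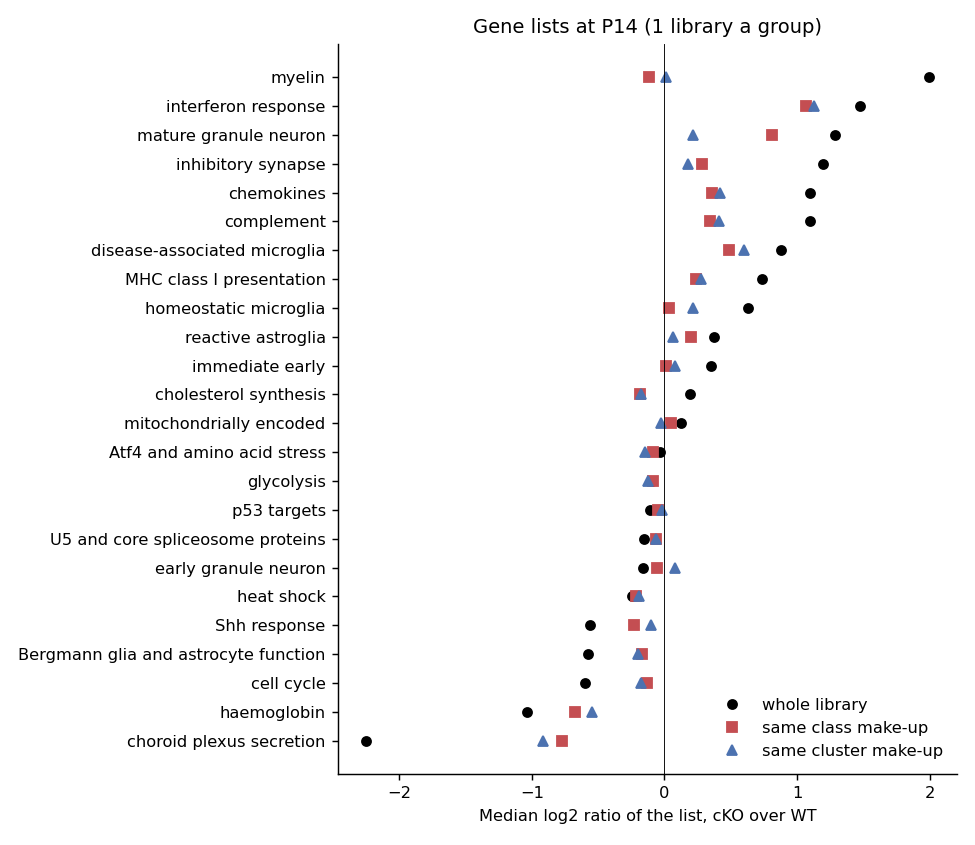
Median log2 ratio of cKO over WT of each gene list over whole libraries (circles), at equal class make-up (squares) and at equal cluster make-up (triangles). The myelin median goes from 2.0 to -0.11 and 0.01, the mature granule neuron median from 1.28 to 0.81 and 0.22, and the interferon response median from 1.47 to 1.07 and 1.13.

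In granule cell progenitors, of 12094 genes, 98 (0.81%) were at least 2-fold higher and 27 (0.223%) lower, and the higher end was led by Mobp (2.47 and 18.3 CPM), an oligodendrocyte gene. Over the whole library 0 of 24 cell cycle genes had a ratio above 0 (median -0.60), against 7842 of all 15843 genes. At equal make-up the median of the cell cycle list was -0.13. Top2a, which untangles replicated DNA, was at 925 and 900 CPM within progenitors. No list of replication-dependent histone genes was fixed, and those given here are examples. Hist1h2ap was at 229 and 785 CPM in progenitors (1.78, 1.73 to 1.82) and Hist1h4d at 141 and 467 CPM, and the latter was at least 2-fold higher in 9 of 10 classes. Most transcripts of these genes lack a poly(A) tail, which the capture of such libraries needs, and their copies are near-identical, so these levels are uncertain.

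GABAergic interneurons of the cKO library had higher levels of cell cycle genes. Of 9299 genes 130 (1.4%) were at least 2-fold higher and 19 (0.204%) lower. Of the cell cycle list, 9 of 14 measured members were at least 2-fold higher (median 1.75, all genes 0.00), while 0 of 13 early granule neuron genes were (median -0.07). Top2a was at 9.48 and 70.8 CPM and the mitotic motor Kif11 at 1.35 and 17.3 CPM. Granule cell progenitor markers, which include several cycle genes, summed to 149 and 316 CPM in these cells, with 8 of 12 higher in cKO. Of those that are not cycle genes, Barhl1 (22.3 and 8.65 CPM) and Mfap4 (42.0 and 17.2 CPM) were lower in cKO. Hhip (17.9 and 26.2 CPM) was higher. Microglial markers summed to 54.5 CPM in WT and 104 in cKO in the class, with 12 of 13 higher in cKO. Igkc, a leading gene of the lymphoid cluster, had 1 and 236 UMIs in the class. The part of RNA from progenitors and from other cells in these results was not tested. Lhx9, a homeodomain factor of developing neurons, had 8 and 219 UMIs in the class, in 4 of 425 and 117 of 562 cells. Prdm13, a regulator of GABAergic fate, was at 18.6 and 48.0 CPM there. At Leiden resolution 2 the class fell into a cluster of 412 WT and 421 cKO cells and another, with Crabp1 and Prdm13 among its leading genes, of 58 and 185 cells. Sorcs1, a sorting receptor, was at 70.1 and 14.7 CPM.

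Oligodendrocyte precursors had 22 genes (0.279%) at least 2-fold higher and 12 (0.152%) lower of 7882. The largest of these was Tmem163, a zinc transporter, with 28 UMIs in WT and 368 in cKO, 9.35 and 157 CPM (4.05, 3.51 to 4.68), in 15 of 245 and 84 of 105 cells. Pdgfra, the growth factor receptor of precursors, was at 637 and 679 CPM. Of 22 cell cycle genes measured in precursors 20 had a ratio above 0 (median 0.36), and 0 passed 2-fold. Of all 7882 genes in the class 4020 had a ratio above 0 (median 0.005). Tmem163 was higher by less than 2-fold in cluster 12 (634 and 1118 CPM) and in oligodendrocytes (141 and 275 CPM).

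Cluster 12 was left unnamed because it met the marker rule for both precursors and oligodendrocytes, and its leading genes included Enpp6, Bcas1 and Gpr17. It held 303 WT and 138 cKO cells. Of 9457 genes 74 (0.782%) were at least 2-fold higher and 100 (1.06%) lower. Interferon response genes led the higher end, with 10 of 12 measured members at least 2-fold higher (median 2.42, all genes 0.00). Ifit3 was at 1.61 and 84.0 CPM, and Iigp1, an interferon-induced GTPase, had 0 and 158 UMIs, at least 79.3-fold higher against the floor of 3 counts. Microglial markers in these cells summed to 92.7 and 56.5 CPM, with 2 of 13 higher in cKO. Cell cycle genes were at the other end, with 8 of 10 at least 2-fold lower (median -1.91), such as Top2a at 38.9 and 2.61 CPM. Granule cell progenitor markers, which include several cycle genes, went with them, summing to 244 and 120 CPM with 1 of 12 higher in cKO. Of the early granule neuron list, 7 of 13 were at least 2-fold lower (median -1.06). With each cell thinned to 2000 UMIs, the median of this list was 0.054, so its direction depends on depth per cell. The part of RNA from granule cells in these values was not tested.

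Oligodendrocytes themselves had 117 genes (1.39%) at least 2-fold higher and 76 (0.904%) lower of 8411, and the leading ones were genes of other cells. Ccl7, a monocyte chemokine, and Pf4 had 0 UMIs in WT and 153 and 136 in cKO, at least 15.4-fold and 13.7-fold higher. Gabrb1 was at 70.7 and 1.51 CPM and the water channel Aqp4, made by astroglia, at 57.3 and 3.91 CPM. The 10 border macrophage markers summed to 6.69 CPM in WT, where 5 were at 0, and 59.8 in cKO, where 0 were. Astroglial markers summed to 1224 and 965 CPM, and their part in these ratios was not tested.

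In microglia 178 of 9050 genes (1.97%) were at least 2-fold higher and 46 (0.508%) lower. Interferon response members made up 21 of the 178. The cytokine subunit gene Il12b had 0 and 128 UMIs, at least 37.5-fold higher against the floor, and Acod1, the enzyme of itaconate synthesis, 2.12 and 24.8 CPM. Over whole libraries, so in cells of any class, Cxcl9, a chemokine induced by interferon gamma, had the highest ratio of the genes measured (15 and 410 UMIs, 5.41, 4.72 to 6.31). Its UMIs came from 1 WT and 19 cKO cells, and the top 10 cells held 97.8% of those in cKO. Ctse, an endosomal protease, was lower in microglia, at 45.7 and 4.50 CPM. Within the microglia class border macrophage markers summed to 214 CPM in WT and 440 in cKO, with 9 of 10 higher in cKO. Oligodendrocyte markers summed to 129 and 629 CPM there, with 11 of 11 higher. The part of other cells and their RNA in the microglial ratios was not tested.

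Astroglia had 95 genes (0.951%) at least 2-fold higher and 91 (0.911%) lower of 9987. Gria1, the AMPA receptor subunit carried by Bergmann glia, was at 2008 and 838 CPM within the class (-1.26, -1.32 to -1.20) and at 140 and 28.2 CPM over whole libraries. Hhip, an inhibitor of hedgehog ligands, was at 26.0 and 4.99 CPM and Gdf10, a Bergmann glial ligand, at 765 and 409 CPM. The class was again held by different clusters, since cluster 18 had 292 and 27 cells and cluster 24 had 138 and 4. With the clusters weighted alike in both libraries, 58 genes were at least 2-fold higher and 38 lower. Myoc, myocilin, had 6 and 137 UMIs in astroglia, and over the whole cKO library 75.4% of its UMIs were in 10 cells.

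Fibroblasts had 85 genes (1.08%) at least 2-fold higher and 114 (1.45%) lower of 7882. Cluster 17 of this class had 211 WT and 114 cKO cells and cluster 27, with Bglap and Bglap2 among its leading genes, 90 and 17. With the clusters weighted alike, 82 genes were higher and 80 lower. Bglap, which encodes osteocalcin, had 1598 and 1 UMIs in the class, and Bglap2 had 776 and 0, at least 166-fold lower. Over the whole WT library 98.6% of Bglap UMIs were in 10 cells, so this difference rests on few cells, and the paralogs can share reads. Cluster 9, a group with few UMIs (medians 3934 in WT and 850 in cKO) that was left unnamed, had 64 of 3929 genes (1.63%) higher and 71 (1.81%) lower.

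The lowest whole-library ratio among the genes measured belonged to Gzma, a cytotoxic granule protease, with 2930 UMIs in 59 WT cells and 1 UMI in 1 cKO cell (-10.25, -16.14 to -8.35). Xcl1, a chemokine of natural killer cells, had 219 and 0 UMIs, at least 45.4-fold lower, and Nkg7 had 704 and 33. Klrd1, a receptor chain of natural killer cells, had 365 and 29 UMIs, in 59 and 11 cells. Gzma and Nkg7 were among the leading genes of cluster 20, which was left unnamed because it met the marker rule for mural and for blood myeloid cells, and which made up 0.857% of WT and 1.47% of cKO cells.

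A few genes of little known function were shifted across many classes. Nhlrc3 was at least 2-fold higher in 7 of the 8 classes in which it was measured, at 8.0 and 25 CPM over whole libraries (1.64, 1.54 to 1.75) and 1.36 at equal make-up. At P10, in libraries that other program versions wrote, Nhlrc3 was at 12 CPM in WT and 6.89 in cKO, the other order. The unnamed transcript 6430590A07Rik was at least 2-fold lower in 6 of 7 classes, at 27.0 and 12.1 CPM at P14 and 23.3 and 26.8 CPM at P10. The transcript 4930544F09Rik had 1288 UMIs in 1172 WT cells and 63 UMIs in 61 cKO cells at P14.

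Genes of the splicing machinery showed no such shift over these libraries. Of 23 measured U5 and core spliceosome genes, 0 were at least 2-fold higher or lower over whole libraries (median -0.15) or at equal make-up (median -0.06). Over whole libraries 6 of the 23 had a ratio above 0, against 7842 of all 15843 genes. No cluster was named Purkinje cell, so these values cannot show levels in the cells where the series title places the deficiency. Prpf8, a partner of Eftud2 in the U5 particle, was at 64.1 and 66.1 CPM, and Sf3b1, a branch point factor, at 291 and 258 CPM. The lists of p53 targets and of Atf4 and amino acid stress had medians of -0.11 and -0.03 over whole libraries. At least 2-fold higher were 1 member of 18 and 1 of 15, beside 4.78% of all genes.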

How the data were processed

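The deposited matrices hold counts, UMIs per gene and barcode, with no normalization. Cell Ranger 7.1.0 wrote both P14 matrices, per the file headers. Mapping to mm10, Seurat 4.1.3 and an older Cell Ranger, 3.0.2, are listed in the submitters' processing notes. Whether intronic reads were counted is not given in the sources used here. Per the labels' protocols, cerebella without meninges were digested with trypsin and filtered.

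Filters removed 401 WT and 940 cKO barcodes under 500 genes, then 41 and 33 over 20% mitochondrial UMIs. Scrublet in Scanpy 1.11.5 called 519 WT and 160 cKO doublets (3.37% and 2.54%) at 1 score threshold, 0.220, taken from cKO because the automatic one called none in WT. Doublets stayed in whole-library values and were left out of classes. Cells of both libraries were clustered together with no correction for batch (2500 variable genes, the first 40 principal components, 20 neighbours from scikit-learn 1.9.0, and Leiden communities at resolution 1 from leidenalg 0.10.2 with igraph 0.11.9). Clusters were named from 194 markers of 18 classes. A name needed 3 or more of its markers to be present in 25% of the cluster's cells and above 2 times their level in other clusters (5 CPM added to both). Of 33 clusters, 9, 12 and 20 had the 3 markers but were left unnamed, cluster 9 for few UMIs and no marker among its 10 leading genes, and clusters 12 and 20 because another class had 3 markers and over 0.6 times the share of the first. The 10 classes with at least 100 cells in each library were compared.

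UMIs were summed per gene and scaled to CPM, and log2 ratios had 0.5 UMI added to each library. Intervals at 95% are exact Poisson for sums, exact conditional binomial for ratios and exact Clopper-Pearson for shares. A count of 0 was given a floor of 3 counts per library. Genes needed 200 UMIs over both libraries, or 100 within a class. For equal make-up, mean UMIs per cell of each class, with unnamed cells and called doublets as categories of their own, were recombined with the mean of both libraries' shares. The steps were tested on simulated data. Apart from genes changed on purpose, both simulated libraries drew on the same mean profile per class. An effect of unequal UMIs per cell between libraries could therefore not show in them.

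Named genes are extremes of each ratio and share, the genes that passed 2-fold in the most classes, members of 24 lists with the most UMIs, Eftud2, Xist, Pcp2, Calb1 and markers. Mitochondrial, haemoglobin and sex-linked genes were left out of the extremes. Other list members and class values (Ifit3, Rsad2, Hhip and similar) were chosen after their values were seen. Some genes that these rules name are not reported here. The comparison, members and lists were chosen with earlier results of these data known. Gene positions came from GENCODE vM21 (32235 of 32285 IDs matched) and promoters from RefSeq. Python 3.11.15, NumPy 2.4.6, SciPy 1.17.1, pandas 2.3.3, matplotlib 3.10.9 and, for the scaling factors of 1 alternative, edgeR 4.0.16 in R 4.3.3 were used.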

Additional observations from a re-analysis of the deposited data

How the results depend on the processing

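No paired analysis was possible because the labels carry no replicate numbers and each genotype has 1 library. Against 758 higher and 342 lower genes over whole libraries, a minimum of 20 UMIs gave 1476 and 770, a minimum of 1000 UMIs 397 and 123, a 1.5-fold threshold 1758 and 997, and a 4-fold threshold 129 and 107. Genes gaining or losing at least 5 points numbered 339 and 471 when cells were thinned to 4000 UMIs, and 5458 gained without thinning. Against 305 higher genes at equal class make-up, 164 genes passed 2-fold at equal cluster make-up. The share ratio of granule neurons was 0.927 with at least 1000 genes per cell and 0.889 at Leiden resolution 2, and that of oligodendrocytes 5.16 with at least 1000 genes and 5.37 at resolution 0.5. Summed over classes, 1487 gene and class pairs were at least 2-fold higher and 615 lower. These became 564 and 279 with cells thinned to 2000 UMIs, 2514 and 1224 at a minimum of 50 UMIs, and 452 and 152 at 500 UMIs, and 948 pairs were higher with clusters weighted alike. Kcnip4 went to -0.17 at equal cluster make-up from 1.13 at equal class make-up. The complement median changed sign in cluster 9 (-0.0082 with at least 1000 genes) and in granule cell progenitors (-0.31, thinned), the early granule neuron median in cluster 12 (0.054, thinned), and the chemokine median in granule cell progenitors (-0.088, minimum of 500 UMIs). The cause was not tested for these. Centring on the median gene moved ratios by -0.0034 and TMM factors by 0.025. Choroid plexus and ependymal cells, with 14 and 2 cells in cKO, were too few to compare within, so their part of a whole-library ratio has no value per cell class. Of the values of single named genes under these alternatives, 1251 whole-library ratios stayed within their counting interval and 275 moved beyond it, with no change of sign among genes past 2-fold. At equal make-up, against an interval of the same width, 1022 stayed and 503 moved.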
